A study of Rattus norvegicus with 18 samples.

Results

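The Hippo pathway was followed through 10 genes in rat pXEN cells, a blastocyst-derived line of the extraembryonic endoderm type. They are the coactivators Yap1 and Wwtr1, the DNA-binding factors Tead1, Tead2 and Tead4, the angiomotins Amot, Amotl1 and Amotl2, and the target genes Ctgf and Cyr61. The genes were chosen by symbol, and all 10 of the 28695 genes in the count files were found and passed the filter on low counts, which 11503 genes passed. The fewest counts that any of the 10 had in a library was 43.

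Hippo signalling is a kinase cascade in which STK3 and STK4 activate LATS1 and LATS2, and LATS kinases phosphorylate YAP and TAZ, the proteins of Yap1 and Wwtr1, and keep them out of the nucleus. Unphosphorylated YAP and TAZ bind TEAD factors on DNA and switch on genes such as Ctgf and Cyr61, and they are known to respond to cell density, cytoskeletal tension and serum lipids. In the blastocyst the pathway is known for the choice between trophectoderm, where TEAD4 and YAP activate Cdx2, and the inner cell mass, where angiomotins and LATS kinases hold YAP in the cytoplasm. RNA levels say nothing of phosphorylation or of where a protein lies in the cell.

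All cells were female, of the WKY strain and from blastocysts, and each of the 6 groups had 3 libraries. Normal cells in routine culture were at passages 37, 40 and 51. Vacuolated cells were grown in routine culture with 0.5 µM CHIR99021, an inhibitor of GSK3 that activates WNT signalling (passages 37, 41 and 51), or with 14% BCS, which the labels do not spell out (passages 41, 32 and 42). A further group was vacuolated by CHIR99021, also at 0.5 µM, and sorted (passages 35, 38 and 49), and the sort is not described. Both kinds of vesicles received CHIR99021, in the presence of serum (passages 32, 35 and 49) or in its absence (passages 32, 35 and 42). A dose of 3 µM with 10 ng/ml murine LIF in N2B27 medium is given for vesicles, and it was read as that of the serum-free ones. The CHIR99021 dose of the serum vesicles is therefore not clear, and serum, medium, LIF and possibly dose differ together between the vesicle groups. The libraries of a group came from different passages, so they are separate harvests, but the labels do not say whether they came from independently derived cultures. P-values set a difference between groups against the spread between harvests, which was estimated over all 6 groups together.

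Libraries held 4050722 to 12074939 counts, of which 2 genes took 37.6 to 61.1%, leaving 1919117 to 6541182 counts for all other genes. Mitochondrially encoded genes made up 2.88 to 4.32% of what remained in normal, CHIR-vacuolated and BCS-vacuolated cells and 6.76 to 9.43% in sorted cells and vesicles. All 12 markers of extraembryonic endoderm were detected in every group, with a summed level of 7059 to 7649 CPM (counts scaled to a common library size) in normal cells. The sum was 7195 to 8930 CPM in CHIR-vacuolated cells. There 0 of the 12 were called higher and 2 lower, beside 4.49% and 3.13% of all genes. In BCS-vacuolated cells it was 10139 to 13249 CPM, with 7 called higher and 0 lower, beside 11.2% and 9.51%. In sorted cells it was 9498 to 12449.5 CPM, with 6 higher and 1 lower, beside 14.4% and 11.5%. Serum vesicles lay lower, at 4635 to 5141 CPM, with 1 higher and 6 lower, beside 31.7% and 28.8%. Serum-free vesicles lay at 5440 to 6246 CPM, with 2 higher and 5 lower, beside 30.2% and 27.5%. Of 10 trophoblast markers, 6 were at 0 in normal cells, and the list's sum was 3.97 to 10.2 CPM outside the vesicles. It was 19.6 to 33.8 CPM in vesicles, where Cdx2 alone averaged 25.0 CPM with serum and 22.2 CPM without. Fibroblast markers summed to 1.06 to 16.4 CPM, with Dcn, Postn and Twist2 at 0 in every group, and pluripotent epiblast markers to at most 2.59 CPM.

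Ctgf, Cyr61 and Amotl2 were all higher in BCS-vacuolated and sorted cells than in normal cells, and their promoters are shown for the TEAD motif they share. RefSeq (GRCr8) gave a start-site window for 7 of the 10 genes, the windows of Tead1, Tead2 and Tead4 being absent from the table. The 250 bases before the start are printed 5′ to 3′ on the gene's strand, with matches to the TEAD motif GGAATG, on either strand, in capitals. They lie at chr1:22624615-22624864 on the minus strand for Ctgf (RefSeq Ccn2), at chr2:237225690-237225939 on the minus strand for Cyr61 (RefSeq Ccn1) and at chr8:112182376-112182625 on the plus strand for Amotl2.
Ctgf: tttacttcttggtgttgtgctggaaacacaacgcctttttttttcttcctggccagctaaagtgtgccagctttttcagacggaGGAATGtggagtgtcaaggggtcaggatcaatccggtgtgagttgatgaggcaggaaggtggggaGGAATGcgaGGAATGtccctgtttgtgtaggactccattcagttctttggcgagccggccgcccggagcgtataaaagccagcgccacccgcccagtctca
Cyr61: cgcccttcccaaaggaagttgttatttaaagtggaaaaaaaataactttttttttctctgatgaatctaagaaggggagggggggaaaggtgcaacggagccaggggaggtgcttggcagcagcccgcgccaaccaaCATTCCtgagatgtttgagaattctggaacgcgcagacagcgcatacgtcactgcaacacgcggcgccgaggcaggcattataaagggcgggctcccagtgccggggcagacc
Amotl2: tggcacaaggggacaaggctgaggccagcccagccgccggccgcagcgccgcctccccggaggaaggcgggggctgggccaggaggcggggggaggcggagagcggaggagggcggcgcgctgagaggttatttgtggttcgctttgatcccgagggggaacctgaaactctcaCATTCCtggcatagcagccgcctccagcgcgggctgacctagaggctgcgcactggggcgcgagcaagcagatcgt
The Ctgf window held 3 matches, starting 166, 101 and 92 bases before the start site, and the Cyr61 and Amotl2 windows held 1 each on the opposite strand, starting 113 and 76 bases before it. The Yap1 window also held 1 match. The motif was present in 12.1% of all 33469 windows of this length, so a match in itself is common. The AP-1 motif TGANTCA, present in 6.34% of windows, was found among the 7 genes only before Amotl1, and the CArG box of serum response factor, present in 1.50%, in none. A match describes letters in the window and is no evidence of binding.

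**Figure D1:**
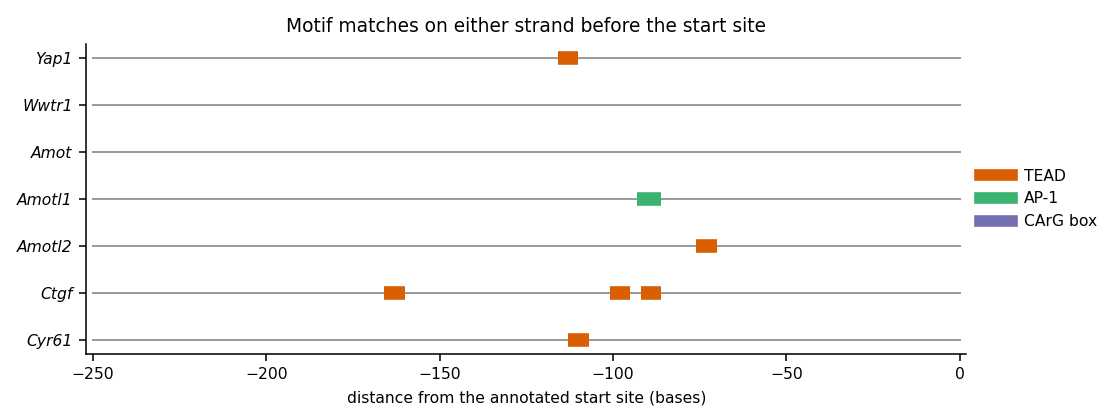
Positions of motif matches in the 250 bases before the annotated start site, in bases from the start, for the 7 genes with a window (the first listed window for Amot and Amotl1). Ctgf has 3 TEAD matches, and Cyr61, Amotl2 and Yap1 have 1 each.

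The 10 genes did not move as a block. Against normal cells, Ctgf, Cyr61 and Amotl2 were higher in BCS-vacuolated cells and in sorted CHIR-vacuolated cells, while vesicles had less Tead1, Tead2 and Tead4 with more Amot and Amotl2. Levels are in CPM after TMM scaling, and calls are from edgeR's quasi-likelihood test with Benjamini-Hochberg adjustment over the 11503 genes at 0.05. The 5 comparisons with normal cells share the same 3 control libraries, so their values stand side by side and are not independent of each other.

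In CHIR-vacuolated cells 2 of the 10 genes rose and 0 fell, where 4.49% of all genes rose and 3.13% fell. In BCS-vacuolated cells 4 rose and 0 fell, against 11.2% and 9.51% of all genes. In sorted vacuolated cells 4 rose and 0 fell, against 14.4% and 11.5%. The median log2 fold change of the 10 genes was 0.15, 0.30 and 0.24 in these 3 groups, while that of all genes tested was within 0.01 of 0.

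Serum vesicles had 2 genes that rose and 3 that fell, close to the background of 31.7% and 28.8% of all genes. Serum-free vesicles had 2 that rose and 7 that fell, against 30.2% and 27.5%. The members' median log2 fold change was -0.25 in serum vesicles and -0.61 in serum-free ones, beside 0.06 and 0.03 over all genes. In bulk RNA, fewer cells of a type and less RNA per cell cannot be told apart.

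**Figure D2:**
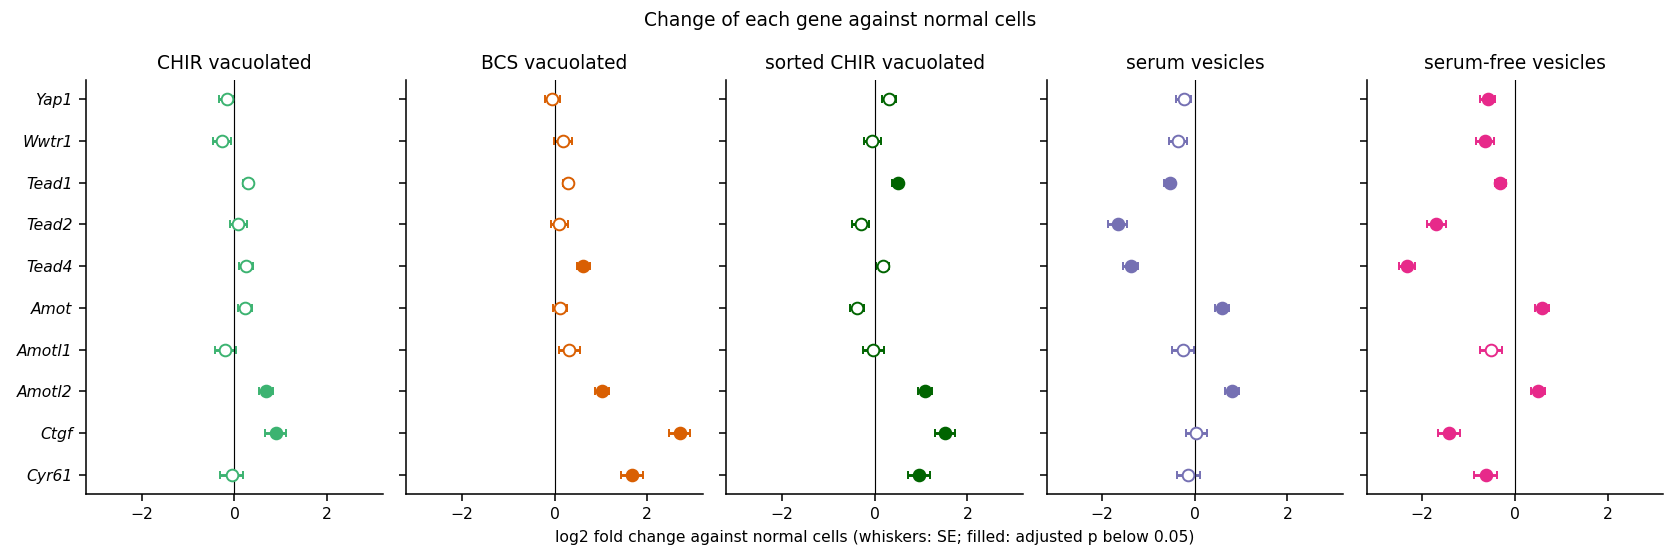
Log2 fold change of each gene against normal cells (x axis, whiskers are standard errors) in the 5 other groups, with filled points for an adjusted p below 0.05. Ctgf lies at 2.70 in BCS-vacuolated cells and at -1.43 in serum-free vesicles, and Tead4 at -2.33 in the latter.

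Against normal cells, the coactivators were called only in serum-free vesicles, where both were lower. Yap1 read 47.7, 48.7 and 45.9 CPM in normal cells, 44.3, 33.6 and 48.4 in CHIR-vacuolated cells and 43.6, 48.5 and 45.4 in BCS-vacuolated cells. It read 47.1, 67.3 and 61.1 in sorted cells, 39.9, 36.2 and 44.7 in serum vesicles and 38.8, 30.4 and 26.3 in serum-free vesicles. Each group overlapped its neighbour in the order of the means, which ran from sorted cells at the top through normal, BCS-vacuolated, CHIR-vacuolated and serum vesicles to serum-free vesicles, and the highest mean was 1.84 times the lowest. The serum-free libraries lay below all normal ones, and Yap1 fell there 1.50-fold (log2 fold change -0.59 ± 0.16 SE, adjusted p = 0.00334).

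Wwtr1, which encodes TAZ, fell 1.57-fold in serum-free vesicles (21.4 ± 5.12 against 34.1 ± 4.68 CPM, SD, n = 3; edgeR adjusted p = 0.00571). It had no call in the other 4 groups. In serum vesicles its libraries read 22.4, 35.5 and 21.4 CPM, with a log2 fold change of -0.35 ± 0.19 and an adjusted p of 0.117. The second library there lay inside the normal range of 28.7 to 37.4, and without it the value was -0.64 with an adjusted p of 0.00728. The ratio of Wwtr1 to Yap1 counts within a library, which scaling between libraries does not touch, averaged 0.571 to 0.841 across the 6 groups, with SDs of up to 0.283.

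The TEAD factors carry YAP and TAZ to DNA. Tead4 read 62.6, 51.6 and 58.9 CPM in normal cells, 65.6, 62.8 and 76.7 in CHIR-vacuolated cells, 85.6, 95.4 and 85.7 in BCS-vacuolated cells and 61.0, 66.5 and 67.7 in sorted cells. It read 23.9, 19.2 and 23.5 in serum vesicles and 8.10, 11.0 and 14.7 in serum-free vesicles. All 6 vesicle libraries lay below all 12 others, and the vesicle groups did not overlap each other.

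Against normal cells Tead4 fell 2.61-fold in serum vesicles (log2 fold change -1.38 ± 0.16, edgeR adjusted p = 4.99e-08) and 5.02-fold in serum-free ones (-2.33 ± 0.17, adjusted p = 1.65e-11). It was also 1.93-fold lower in serum-free than in serum vesicles (adjusted p = 0.000328). In BCS-vacuolated cells it rose 1.54-fold (88.9 ± 5.59 against 57.7 ± 5.60 CPM, adjusted p = 0.00368), all 3 libraries lying above every normal one.

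Tead2 read 28.9, 35.5 and 35.7 CPM in normal cells, 7.91, 12.5 and 11.3 in serum vesicles and 12.6, 11.5 and 7.10 in serum-free vesicles. The vesicle groups overlapped each other and lay below every other library, the next lowest being 26.2 CPM in sorted cells. Tead2 fell 3.16-fold in serum vesicles (adjusted p = 1.70e-07) and 3.24-fold in serum-free ones (edgeR adjusted p = 1.10e-07). Unlike Tead4, it had no call between the vesicle groups (log2 fold change -0.04 ± 0.22, 95% interval of the ratio 0.701 to 1.35). Whether the 2 genes differ in that step was not tested.

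Tead1 changed less. Its mean was highest in sorted cells (87.3 ± 3.94 CPM), where it rose 1.41-fold over normal cells (62.0 ± 1.70; edgeR adjusted p = 0.00201) with no overlap. CHIR- and BCS-vacuolated cells, at 75.7 ± 3.71 and 75.7 ± 3.23 CPM, lay above normal cells in every library but missed the threshold (edgeR adjusted p = 0.124 and 0.0702). The BCS difference was called by DESeq2 (adjusted p = 0.0201) and the CHIR difference in a fit of its 2 groups alone (0.0383). Serum vesicles read 42.1, 44.4 and 40.8 CPM, and Tead1 fell there 1.46-fold (adjusted p = 0.000253). In serum-free vesicles it fell 1.24-fold (49.9 ± 5.18 CPM, edgeR adjusted p = 0.0201), a call that was lost without normal replicate 1 (0.0505), normal replicate 3 (0.0583) or serum-free replicate 3 (0.119), and without the filter on low counts (0.123).

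Within a library, the ratio of Tead4 to Tead1 counts was 0.930 ± 0.0703 in normal cells, 0.904 ± 0.103 in CHIR-vacuolated cells, 1.17 ± 0.0231 in BCS-vacuolated cells and 0.747 ± 0.0703 in sorted cells. It was 0.525 ± 0.0803 in serum vesicles and 0.232 ± 0.0925 in serum-free vesicles. Every vesicle library lay below the normal range of 0.859 to 1, and so did the sorted libraries, at 0.677 to 0.818. Tead3 is not part of these ratios. The ratio of Tead2 to Tead1 was 0.539 ± 0.0686 in normal cells and 0.312 ± 0.0330 in sorted cells, whose libraries lay below all normal ones, and 0.249 ± 0.0530 and 0.206 ± 0.0402 in the vesicles. These ratios are descriptions with no test.

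**Figure D3:**
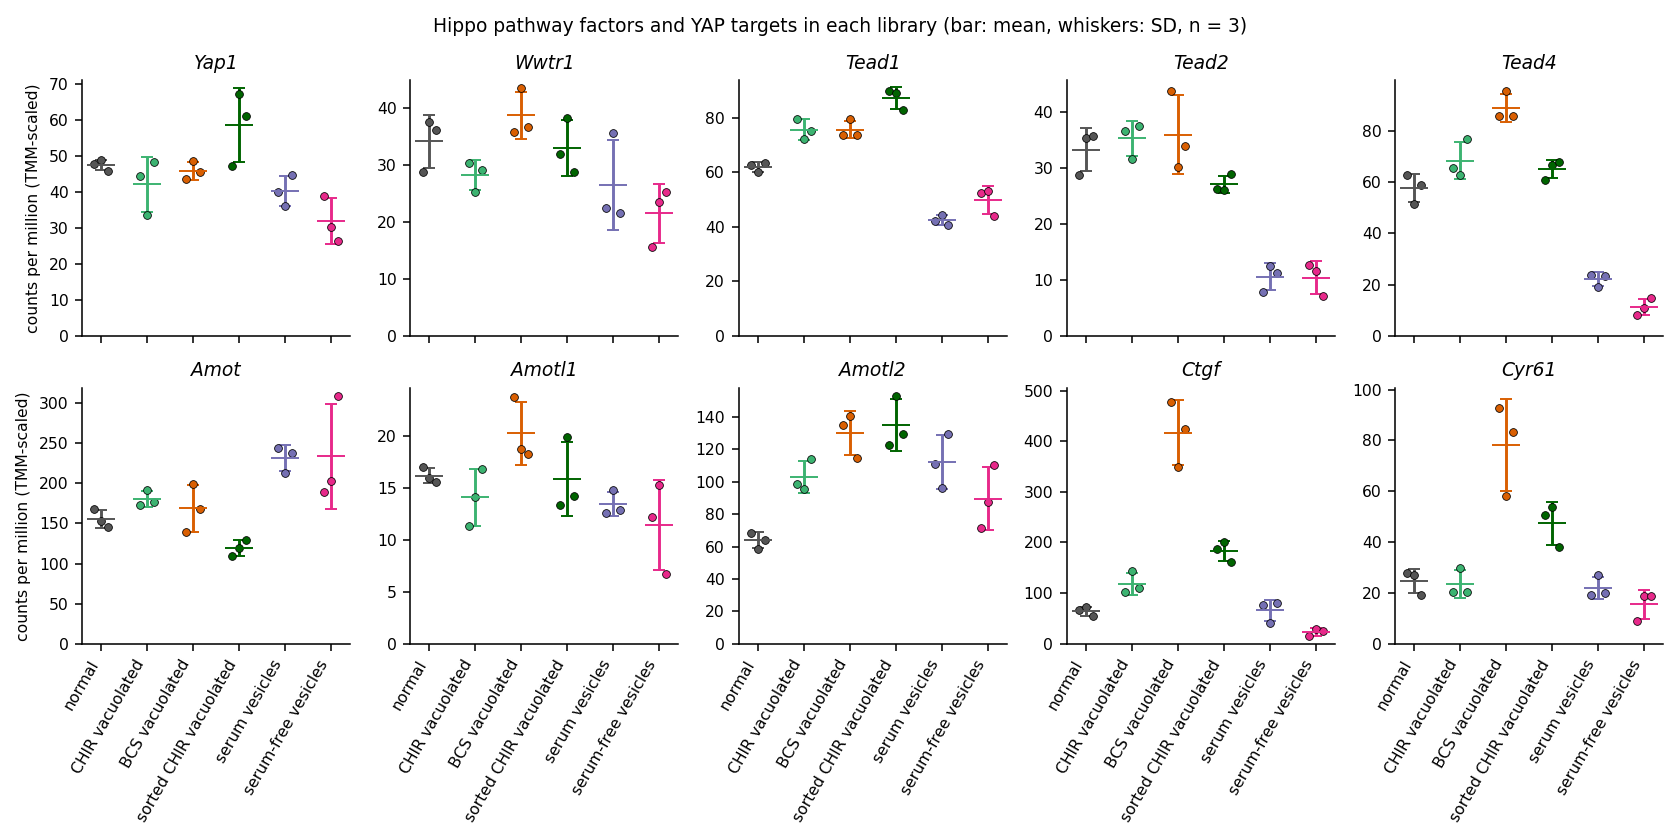
Level of each of the 10 genes in every library (y axis, TMM-scaled CPM, from 0), by group, with the group mean and SD (n = 3). Ctgf and Cyr61 peak in BCS-vacuolated cells, and Tead2 and Tead4 are lowest in the 6 vesicle libraries.

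The other TEAD-related genes were few. Of Tead3 and the vestigial-like cofactors Vgll1 to Vgll4, which bind TEADs in place of YAP, 3 of 5 listed genes were tested. Vgll4, an antagonist of YAP, rose 2.21-fold in serum vesicles (14.6 ± 4.79 against 6.49 ± 2.06 CPM, edgeR adjusted p = 0.000619). Vgll3 had 48 counts over the normal libraries and 0 over the serum vesicles, at least 16.7-fold lower with a floor of 3 counts over the group. Tead3 had 9 to 72 counts on its own strand and 976 to 5607 on the opposite strand, so its level cannot be read with confidence. In serum vesicles the list had 2 genes higher and 1 lower, beside 31.7% and 28.8% of all genes. With unstranded counts it had 1 higher and 2 lower, and with the 2 groups fitted alone 0 lower. In serum-free vesicles 1 was higher and 1 lower, beside 30.2% and 27.5% of all genes. There 0 were higher and 2 lower with unstranded counts, and 2 higher with passage as a covariate.

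Cdx2, the trophectoderm factor known as a TEAD4 target in the embryo, had 0 counts over the normal libraries, 457 over the serum vesicles and 479 over the serum-free ones. It was thus at least 146-fold and 125-fold higher in the vesicles, with a floor of 3 counts over the group. Tead4 was lowest in these groups, and a link between the levels of Tead4 and Cdx2 was not tested. Eomes, another trophectoderm factor that is also expressed in endoderm, went the other way, from 8.25 CPM in normal cells to 0.854 and 0.969 in the vesicles. Prl3d1 and Hand1 were at 0 in every group.

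The angiomotins, scaffold proteins that hold YAP at junctions or in the cytoplasm, differed among themselves. Amotl2 is itself a target of YAP. It read 68.6, 58.7 and 64.3 CPM in normal cells, 98.6, 95.7 and 114 in CHIR-vacuolated cells, 135, 140 and 115 in BCS-vacuolated cells and 123, 153 and 129 in sorted cells. In serum vesicles it read 111, 96.3 and 130 CPM and in serum-free vesicles 71.4, 87.3 and 110. The normal libraries were the 3 lowest of all 18, and the other 5 groups overlapped their neighbours in the order of the means.

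Amotl2 was the only one of the 10 genes called higher in all 5 groups by edgeR. It rose 1.61-fold in CHIR-vacuolated cells (adjusted p = 0.00382), 2.04-fold in BCS-vacuolated cells (2.69e-05), 2.11-fold in sorted cells (9.31e-06), 1.75-fold in serum vesicles (5.07e-05) and 1.41-fold in serum-free vesicles (0.00651). Without serum-free replicate 3 the last value was a log2 fold change of 0.32 with an adjusted p of 0.0799.

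Amot followed another order. It read 168, 153 and 145 CPM in normal cells and 173, 191 and 177 in CHIR-vacuolated cells. BCS-vacuolated cells read 139, 199 and 168 and sorted cells 109, 119 and 129. Serum vesicles read 244, 213 and 237 and serum-free vesicles 189, 203 and 309. The vesicle groups overlapped each other and lay above the normal cells, and the sorted libraries were the 3 lowest of all 18. CHIR-vacuolated cells also lay above every normal library but had no call (edgeR adjusted p = 0.457). Amot rose 1.49-fold in serum vesicles (edgeR adjusted p = 0.00206) and 1.51-fold in serum-free vesicles (0.00173). In sorted cells the log2 fold change against normal cells was -0.38 ± 0.15, with an edgeR adjusted p of 0.0649, and it was called with the 2 groups fitted alone (-0.37, adjusted p = 0.00741).

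Amotl1 had no call in any of the 9 comparisons by edgeR. Its group means ran from 11.4 ± 4.33 CPM in serum-free vesicles to 20.2 ± 3.04 in BCS-vacuolated cells. The serum-free libraries read 12.2, 15.3 and 6.76, a log2 fold change of -0.51 ± 0.24 against normal cells (edgeR adjusted p = 0.0686), and without the second of them the value was -0.81 with an adjusted p of 0.0105. The ratio of Amotl2 to Amot counts within a library was 0.412 ± 0.0288 in normal cells, 0.787 ± 0.161 in BCS-vacuolated cells and 1.14 ± 0.141 in sorted cells, and 0.388 ± 0.0376 in serum-free vesicles, which overlapped the normal cells.

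Of the 10 genes, the target Ctgf had the widest range of group means. Ctgf (now Ccn2, connective tissue growth factor) encodes a secreted matricellular protein. It read 65.9, 72.0 and 54.6 CPM in normal cells, 103, 143 and 110 in CHIR-vacuolated cells, 478, 349 and 424 in BCS-vacuolated cells and 186, 202 and 161 in sorted cells. In serum vesicles it read 76.8, 41.7 and 79.5 and in serum-free vesicles 15.4, 29.4 and 25.4. In the order of the means, BCS-vacuolated, sorted and CHIR-vacuolated cells were each separate from the next, serum vesicles and normal cells overlapped, and serum-free vesicles lay below all others. The highest mean was 17.8 times the lowest, beside 7.89 times for Tead4 and 5.04 times for Cyr61.

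Ctgf rose 6.51-fold in BCS-vacuolated cells (log2 fold change 2.70 ± 0.23, edgeR adjusted p = 1.91e-07) and 2.86-fold in sorted cells (1.51 ± 0.22, adjusted p = 7.32e-05). In CHIR-vacuolated cells it rose 1.85-fold (0.89 ± 0.22, adjusted p = 0.017), a call lost without normal replicate 1 (0.0538), normal replicate 3 (0.0882) or CHIR replicate 2 (0.0885). In serum-free vesicles it fell 2.70-fold (-1.43 ± 0.24, adjusted p = 4.26e-05). In serum vesicles it had no call (log2 fold change 0.04 ± 0.23), with a 95% interval of the ratio from 0.728 to 1.44.

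Cyr61 (now Ccn1, cysteine-rich angiogenic inducer) encodes a related matricellular protein. It read 27.8, 26.9 and 19.1 CPM in normal cells, 20.5, 29.8 and 20.5 in CHIR-vacuolated cells, 92.9, 58.0 and 83.5 in BCS-vacuolated cells and 50.5, 53.8 and 37.9 in sorted cells. In serum vesicles it read 19.2, 27.1 and 19.8 and in serum-free vesicles 9.04, 18.8 and 18.6. BCS-vacuolated and sorted cells stood above all other libraries, and normal cells, CHIR-vacuolated cells and serum vesicles overlapped.

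Cyr61 rose 3.18-fold in BCS-vacuolated cells (edgeR adjusted p = 5.83e-05) and 1.93-fold in sorted cells (0.00606). In CHIR-vacuolated cells the log2 fold change was -0.06 ± 0.25, with a 95% interval of the ratio from 0.659 to 1.40. It fell 1.55-fold in serum-free vesicles (edgeR adjusted p = 0.0387), a call lost without normal replicate 1 (0.128), normal replicate 2 (0.108) or serum-free replicate 1 (0.164), and with the 2 groups fitted alone (0.058). The ratio of Cyr61 to Ctgf counts within a library was 0.382 ± 0.0373 in normal cells, 0.198 ± 0.0111 and 0.186 ± 0.0171 in CHIR- and BCS-vacuolated cells, 0.258 ± 0.0195 in sorted cells and 0.653 ± 0.0751 in serum-free vesicles. None of these groups' libraries overlapped the normal ones, so Ctgf gained more than Cyr61 in vacuolated cells and lost more in serum-free vesicles. Serum vesicles spread from 0.249 to 0.65.

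The remaining comparisons set the treated groups against each other. CHIR-vacuolated cells had 0 genes higher and 2 lower than BCS-vacuolated cells, where 5.83% of all genes were higher and 7.40% lower. The 2 were the targets, Ctgf 3.52-fold (118.6 ± 21.6 against 417 ± 64.5 CPM, edgeR adjusted p = 2.60e-05) and Cyr61 3.32-fold (adjusted p = 6.02e-05). With these groups fitted alone, 5 genes were called, and DESeq2 also called Tead4 lower (adjusted p = 0.0301). Other lists, described below, also had genes lower here. Of 14 immediate early genes 0 were higher and 5 lower, and of 17 actin cytoskeleton and serum response factor genes 0 and 6. Of the 12 endoderm markers 1 was higher and 5 lower. Of 22 Hippo kinases and regulators and 11 further targets, 0 were higher and 1 lower in each list.

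Sorted against unsorted CHIR-vacuolated cells, 2 genes were higher and 1 lower, beside 6.69% and 5.05% of all genes. Cyr61 was 2.01-fold higher (edgeR adjusted p = 0.00835), a call lost without CHIR replicate 1 (0.0529). Yap1 was 1.39-fold higher at an adjusted p of 0.0497 with overlapping libraries, and this call was lost with relative log expression scaling (0.0529), with passage as a covariate (0.0528), without the 2 most abundant and the mitochondrial genes (0.0522), with a block for replicate number (0.0647) and without CHIR replicate 1 (0.0994), CHIR replicate 2 (0.269), sorted replicate 2 (0.24) or sorted replicate 3 (0.137). Amot was 1.51-fold lower (119 ± 9.82 against 180 ± 9.65 CPM, adjusted p = 0.0106), lost without CHIR replicate 2 (0.0566) or sorted replicate 1 (0.0531). Ctgf was 1.55-fold higher with an edgeR adjusted p of 0.0656, and it was called by DESeq2 (0.0385), without the filter (0.000307) and with the 2 groups fitted alone (0.000726). Amotl2 was 1.31-fold higher with an adjusted p of 0.0778, and it was called with the 2 groups fitted alone (0.0125). Fitted alone, Tead2 was also called, as lower (-0.38, adjusted p = 0.0347). Of 14 tested immediate early genes, described below, 7 were higher in sorted cells and 1 lower, and 4 to 6 were higher with a library left out. Fosb was 72.5-fold higher (22.5 ± 10.6 against 0.280 ± 0.486 CPM), an inexact fold, as its unsorted level was near the floor. Fos was 8.25-fold and Jun 4.34-fold higher, while Myc was 1.83-fold lower. Their part in the difference of Cyr61 and Ctgf was not tested.

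Serum-free against serum vesicles, 0 genes were higher and 2 lower, beside 12.9% and 11.5% of all genes. Besides Tead4, Ctgf was 2.77-fold lower (23.4 ± 7.18 against 66.0 ± 21.1 CPM, edgeR adjusted p = 0.000259) with no overlap. The Cyr61 libraries did not overlap either, but its difference of -0.49 ± 0.25 (log2) had an adjusted p of 0.172, and Yap1 one of -0.34 ± 0.16 (edgeR adjusted p = 0.125). Yap1 was called lower without serum-free replicate 1 (0.0366) and Amotl2 without serum-free replicate 3 (0.027).

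Serum vesicles against CHIR-vacuolated cells had 1 gene higher and 4 lower, beside 30.3% and 27.6% of all genes. Tead2 was 3.35-fold lower, Tead4 3.09-fold, Ctgf 1.80-fold and Tead1 1.78-fold, with edgeR adjusted p of 8.76e-08, 4.41e-09, 0.00313 and 1.10e-06. Amot was 1.28-fold higher at 0.044, a call lost without any 1 of the 3 CHIR libraries (0.0629 to 0.127) or without serum replicate 1 (0.13) or 3 (0.0966), and with no filter (0.0554) or unstranded counts (0.059).

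Upstream, 22 of 24 listed Hippo kinases and regulators were tested. In serum vesicles 7 rose and 6 fell, close to the background of 31.7% and 28.8% of all genes, with a median log2 fold change of 0.41 beside 0.06 over all genes. In serum-free vesicles 4 rose and 7 fell, beside 30.2% and 27.5% of all genes, with a median of -0.21 beside 0.03. Lats1, a kinase that phosphorylates YAP, rose 4.07-fold in serum vesicles (98.7 ± 5.42 against 24.2 ± 2.55 CPM, edgeR adjusted p = 1.10e-11) and 3.08-fold in serum-free ones (4.48e-10). Crb3, an apical polarity protein upstream of the pathway, rose 8.94-fold and 6.83-fold (edgeR adjusted p = 1.93e-10 and 1.99e-09). Frmd6, a FERM-domain protein that activates the cascade, rose 2.43-fold and 2.16-fold. Ajuba and Limd1, LIM proteins that bind and restrain LATS kinases, fell 2.30-fold and 2.20-fold in serum vesicles and 2.41-fold and 2.23-fold in serum-free ones. Genes that act with the kinases fell too. Rassf1, a scaffold that binds STK3 and STK4, fell 1.59-fold in serum vesicles (edgeR adjusted p = 0.00374), and Map4k4, a kinase that activates LATS, fell 2.92-fold in serum-free ones (7.88e-05). Llgl1, a polarity protein, fell 1.52-fold and 1.67-fold. Serum-free against serum vesicles, 0 upstream genes were higher and 7 lower, beside 12.9% and 11.5% of all genes. The 7 became 2 to 8 with a library left out and 1 with the 2 groups fitted alone. Among them Lats2, the other LATS kinase, was 2.11-fold lower without serum (edgeR adjusted p = 0.0125).

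In CHIR-vacuolated cells 1 upstream gene rose and 0 fell, beside 4.49% and 3.13% of all genes, and this was Frmd6, 2.03-fold (edgeR adjusted p = 0.000152). With no filter 2 rose, and 3 with the 2 groups fitted alone. In BCS-vacuolated cells 5 rose and 0 fell, beside 11.2% and 9.51% of all genes, or 3 rose without normal replicate 2 or BCS replicate 1. Wwc2, a relative of the LATS-activating protein KIBRA, rose there 2.47-fold (adjusted p = 0.000972). In sorted cells 4 rose and 2 fell, beside 14.4% and 11.5%. With the 2 groups fitted alone 8 rose, and 1 fell with no filter and without any of 5 libraries (normal replicates 1, 2 and 3 and sorted replicates 2 and 3). Lats1 rose 1.65-fold in sorted cells (edgeR adjusted p = 0.000455), while Limd1 fell 1.52-fold (0.00261) and the kinase Stk4 1.27-fold (0.0433). The list's median log2 fold change in these groups was 0.11, 0.01 and 0.32.

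Of 17 further listed YAP and TAZ targets 11 were tested, and in vesicles they went both ways. In serum vesicles 7 rose and 4 fell, beside 31.7% and 28.8% of all genes, with a median log2 fold change of 1.06. In serum-free vesicles 6 rose and 3 fell, beside 30.2% and 27.5%, with a median of 0.70. Ankrd1, a muscle and stress response gene widely read as a YAP target, fell 4.89-fold in serum vesicles (1.17 ± 0.434 against 5.96 ± 1.96 CPM, edgeR adjusted p = 1.31e-05) and 15.9-fold in serum-free ones (0.338 ± 0.214 CPM, adjusted p = 4.31e-08). F3, tissue factor, fell 2.43-fold and 3.40-fold, and Igfbp3, an IGF-binding protein, 5.14-fold and 8.39-fold. Against these, Asap1, a regulator of ARF GTPases, rose 6.06-fold and 4.93-fold, Dock5 2.39-fold in each, and Myof, myoferlin, 2.38-fold and 2.53-fold.

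In vacuolated cells, 1 further target rose and 1 fell with CHIR99021, beside 4.49% and 3.13% of all genes. With BCS 3 rose and 0 fell, beside 11.2% and 9.51%, and in sorted cells 5 rose and 1 fell, beside 14.4% and 11.5%. The list's medians were 0.30, 0.30 and 0.71. Myof rose in all 3 groups, by 1.53-fold, 2.05-fold and 1.64-fold (edgeR adjusted p = 0.00629, 1.15e-05 and 0.000572). The count of further targets higher in CHIR-vacuolated cells was 0 without normal replicate 1, 3 with no filter and 4 with the 2 groups fitted alone. With the 2 groups fitted alone 1 also fell with BCS. Crim1, a transmembrane regulator of growth factors, rose 2.42-fold in BCS-vacuolated and 3.16-fold in sorted cells. Ankrd1 was not among the genes called there.

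**Figure D4:**
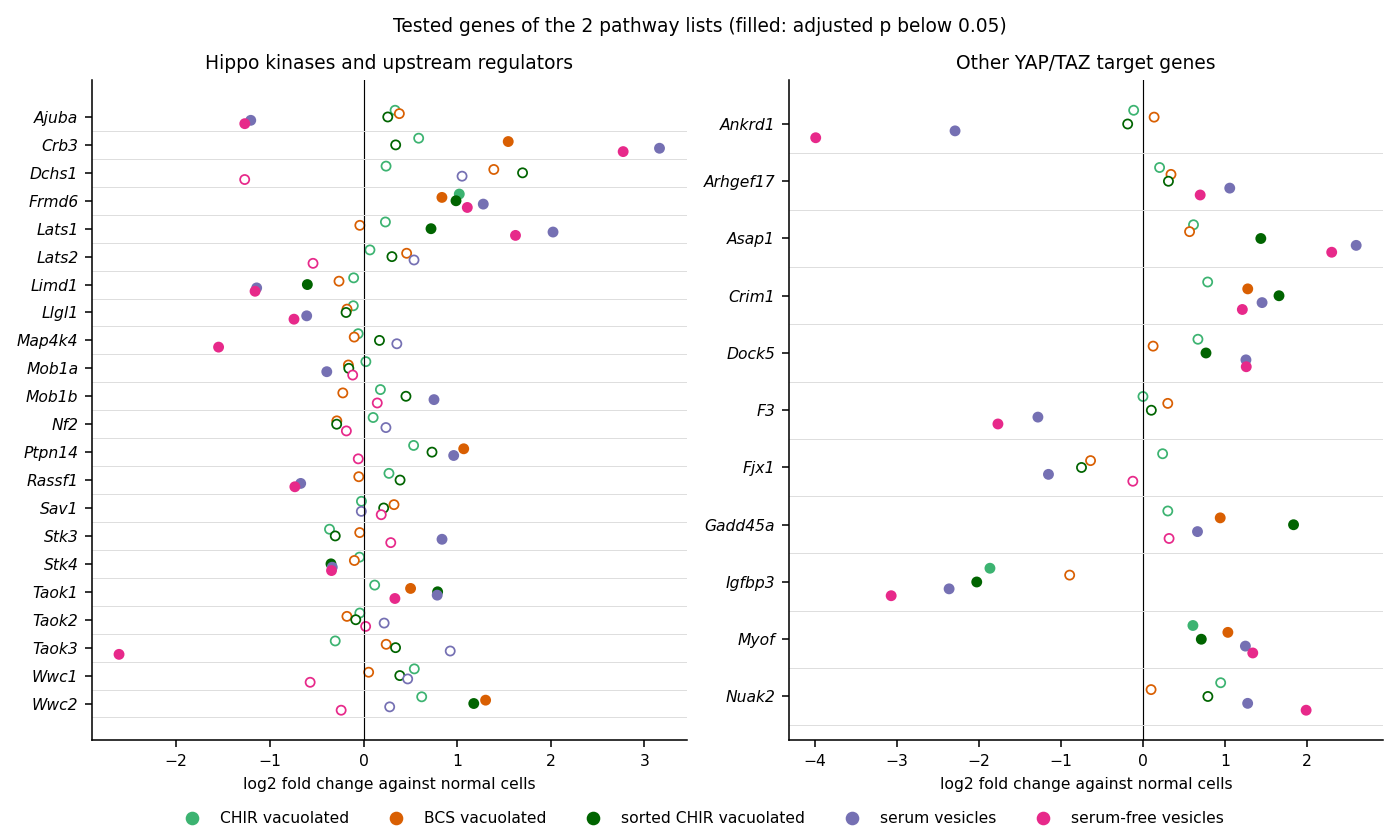
Log2 fold change against normal cells (x axis) of the 22 tested Hippo kinases and regulators (left) and the 11 further YAP and TAZ targets (right), 1 row per gene and 1 colour per group, filled where the adjusted p was below 0.05. Lats1 and Crb3 lie furthest to the right in vesicles on the left panel, and Ankrd1 and Igfbp3 furthest to the left on the right panel.

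Immediate early genes respond rapidly to serum, stress or cell handling, and 14 were tested. Of these, 8 rose and 1 fell in BCS-vacuolated cells, beside 11.2% and 9.51% of all genes, and 9 rose and 1 fell in sorted cells, beside 14.4% and 11.5%. In CHIR-vacuolated cells 2 rose and 0 fell, beside 4.49% and 3.13%, or 4 rose with the 2 groups fitted alone. The list's summed level was 160 to 184 CPM in normal cells, 303 to 343 in BCS-vacuolated cells and 347 to 430 in sorted cells. Jun rose 4.43-fold in sorted cells (84.3 ± 16.1 against 19.1 ± 3.28 CPM, edgeR adjusted p = 1.13e-08), and Dusp1 3.76-fold in BCS-vacuolated cells (adjusted p = 9.23e-05). In serum vesicles, where Ctgf and Cyr61 had no call, 10 rose and 2 fell (beside 31.7% and 28.8% of all genes), with a sum of 350 to 394 CPM. In serum-free vesicles, where Ctgf and Cyr61 fell, 10 also rose and 2 fell (beside 30.2% and 27.5%), with a sum of 273 to 401 CPM. Ctgf and Cyr61 are only part of the targets, as Amotl2 rose in both vesicle groups and the further targets, given above, went both ways. Sorted cells also had the higher mitochondrial share given above, and BCS-vacuolated and sorted cells the higher sum of endoderm markers. The part of the immediate early genes, the mitochondrial share and the endoderm markers in the levels of the target genes was not tested.

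Of 17 tested genes of the actin cytoskeleton and serum response factor, a transcription factor that shares targets with YAP, 4 rose and 0 fell in CHIR-vacuolated cells (beside 4.49% and 3.13% of all genes), or 1 fell with no filter or without normal replicate 3. In BCS-vacuolated cells 10 rose and 0 fell (beside 11.2% and 9.51%), and in sorted cells 5 rose and 1 fell (beside 14.4% and 11.5%). Actb, cytoplasmic actin, rose 1.48-fold, 2.50-fold and 2.49-fold in these groups, and Tpm1, a tropomyosin, 3.14-fold, 2.43-fold and 3.71-fold. In serum vesicles 7 rose and 3 fell, beside 31.7% and 28.8% of all genes, and in serum-free vesicles 5 rose and 7 fell, beside 30.2% and 27.5%. In the latter 3 to 5 fell with a library left out, the fewest without serum-free replicate 2, and 4 without normal replicate 1 or serum-free replicate 1. The list's median log2 fold change was 0.39 in serum vesicles and -0.42 in serum-free ones, beside 0.06 and 0.03 over all genes. Actb rose 2.95-fold in serum vesicles and 3.71-fold in serum-free ones (edgeR adjusted p = 3.81e-11 and 1.26e-12). In contrast, Tagln2 fell 2.56-fold and 1.42-fold, and Cnn1, at 4.74 CPM in normal cells, fell 4.43-fold and 7.24-fold. Srf itself fell 1.56-fold in serum vesicles (edgeR adjusted p = 0.0189) and 1.97-fold in serum-free ones (0.000823). The part of Srf in the levels of Ctgf and the other targets was not tested.

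Genes with the most similar pattern were sought among 6993 tested genes by the root mean square difference of centred log2 CPM over the 18 libraries, and none was another of the 10. Ctgf was nearest to Irs2, an insulin receptor substrate, at 0.47, and to the integrin Itga5 at 0.61, against a spread of Ctgf itself of 1.38 (SD of log2 CPM). Irs2 averaged 6.70 CPM in normal cells, 40.1 in BCS-vacuolated cells, 17.6 in sorted cells and 3.52 in serum-free vesicles. Cyr61 was nearest to Cln8 at 0.37 and Ccdc120 at 0.44, Tead4 to Dusp3 at 0.26 and Chsy1 at 0.32, and Tead2 to Abcf1 and Bub1 at 0.23 each. The other 6 genes varied less, with spreads of their own of 0.32 to 0.41, and their nearest genes lay at 0.14 to 0.24. These were Khsrp and Mafg for Yap1, Snx4 and Tmem129 for Wwtr1, Cand1 and Psme4 for Tead1, Zfp263 for Amot, Samd4b and Pkmyt1 for Amotl1, and Slc12a4 and Apc for Amotl2.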

How the data were processed

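Ribosome-depleted total RNA was made into directional libraries and read as 101-cycle pairs, per the labels' protocols. The authors deposited raw counts per gene and library, unstranded and for each strand, and bcl2fastq, Trimmomatic 0.38, STAR 2.6.1 and the rn6 build are named in the submitters' processing notes. Tests used column 4, the strand with nearly all counts, beside which the opposite strand had 1.70 to 2.85%. The order of tools, the counter and the annotation are not given in the sources used here.

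The main test was edgeR 4.0.16 and the second DESeq2 1.42.0, with limma 3.58.1 loaded by edgeR, all under R 4.3.3. Genes passed filterByExpr (minimum count 10) by group, and libraries were scaled by TMM. Robust quasi-likelihood models with 1 mean per group took in all 18 libraries, which left 12 residual degrees of freedom. P-values were adjusted by Benjamini-Hochberg over 11503 genes for each of 9 comparisons, and a fold is 2 to the log2 fold change. Intervals of ratios use the SE and those degrees of freedom and are approximate. The script was tested on simulated data.

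The members, lists and rules were chosen with earlier results of these data known. All members are named, with the 2 genes most like each (mean log2 CPM of at least 3, prior count 2; 1 of these genes is not reported here) and, per list, comparison and direction, at most the 4 called genes with the smallest adjusted p. Alternatives were relative log expression scaling, DESeq2, no filter, unstranded counts, omission of the 2 most abundant and the Mt- genes, groups fitted alone, a replicate block, passage and each library left out.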

Additional observations from a re-analysis of the deposited data

How the results depend on the processing

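Of 1260 values of the 10 genes under alternative settings, 1214 kept their side of the threshold, 30 lost it, 16 gained it and 0 called values changed sign, while 33 values with no call on either side did. The number of the 10 genes called in CHIR-vacuolated against normal cells was 1 to 2 with a library left out. In sorted against unsorted CHIR-vacuolated cells it was 1 to 3 with a library left out and 6 with the 2 groups fitted alone, and in CHIR- against BCS-vacuolated cells it was 5 with the groups fitted alone. The cause was not tested. Counts over all genes ranged, over all settings, from 504 to 1856 for CHIR-vacuolated against normal cells (876 as reported), 1275 to 2606 for BCS-vacuolated (2383), 1982 to 3809 for sorted (2974), 690 to 2576 for sorted against unsorted (1350), 748 to 1947 for CHIR against BCS (1522) and 1223 to 3012 for serum-free against serum vesicles (2806). Scaling moved the median of all genes by less than 0.1 (log2). Same-numbered libraries correlated at -0.149 to 0.095 in their deviations from the group means, so the numbers were not taken as pairs. With a replicate block, 9 members were called in serum-free vesicles against normal cells and 2 in sorted against unsorted cells, and only the call of Yap1 in the latter was lost. Calls of the least counted members, Tead2, Tead4 and Cyr61 in vesicles, rest on as few as 43 counts in a library.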
